A study of Mus musculus with 4 samples.

Results

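The genes described here are the mouse major histocompatibility complex (MHC) genes and the genes of antigen presentation. They are every gene whose symbol begins with H2-, plus B2m, Tap1, Tap2, Tapbp, Tapbpl, Erap1, Cd74, Ciita, Nlrc5, Ctss, Rfx5, Rfxap and Rfxank. Of the 30731 genes listed in all 4 tables, 47 met this rule: 2 classical class I genes, 22 non-classical class I genes, 9 class II genes, H2-Ke6, which has an H2- symbol but encodes no MHC chain, and 13 genes of processing and regulation. The other 11 H2- genes of the reference, all annotated as pseudogenes or polymorphic pseudogenes, were listed for ILC2 and NK cells alone and were left out.

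The RNA came from innate lymphoid cells of 3 kinds. MNK-3 is a wild-type cell line, labelled as ILC3-like, started from thymocytes of NIH-Swiss fetuses at day 15 and grown in IL-7 and IL-15 at 10 ng/ml (2 libraries). Group 2 innate lymphoid cells (ILC2) came from the bone marrow of pooled wild-type C57BL/6 mice aged 8 to 12 weeks and were expanded with IL-25, IL-33, IL-7 and IL-2, each at 10 ng/ml (1 library). NK cells, labelled as group 1, came from the spleen of pooled wild-type C57BL/6 mice of the same ages, with no cytokine given for them (1 library). Strain, tissue, culture and cell type therefore change together between MNK-3 and the other cells, and their shares in a difference cannot be told apart.

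MHC class I molecules pair a heavy chain with beta-2 microglobulin and display peptides that were cut in the cytosol and pumped into the endoplasmic reticulum. NK cells both carry class I and read it on other cells through inhibitory receptors. Class II molecules pair an alpha and a beta chain, travel with the invariant chain to endosomes and display peptides of internalised proteins to CD4+ T cells. Some ILC2 and ILC3 of the mouse are known to carry class II. Class I promoters are known to be driven by NLRC5 and class II promoters by CIITA, which both dock on an assembly of RFX, CREB/ATF and NF-Y factors over the X and Y boxes.

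The X and Y boxes can be read in the mouse promoters (RefSeq, GRCm38.p6, windows of 250 bases before to 50 bases after each start). A composite of GCAAC and ATTGG with 24 to 32 bases between them, searched on both strands, stands for the X1 and Y boxes. It was found in 134 of 32851 promoter windows (0.408%) and in 5 of the 41 windows matched to 38 member genes. All 5 belonged to class II genes, which had 9 windows. They are shown because they hold what these 5 class II promoters share, with the composite in capitals:
H2-Aa: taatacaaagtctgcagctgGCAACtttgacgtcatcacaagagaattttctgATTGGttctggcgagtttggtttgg
H2-Eb1: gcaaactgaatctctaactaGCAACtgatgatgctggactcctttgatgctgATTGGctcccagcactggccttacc
H2-Eb2: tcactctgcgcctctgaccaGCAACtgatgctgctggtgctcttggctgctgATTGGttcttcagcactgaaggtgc
H2-Oa: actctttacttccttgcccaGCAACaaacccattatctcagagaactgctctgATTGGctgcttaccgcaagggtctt
H2-Ob: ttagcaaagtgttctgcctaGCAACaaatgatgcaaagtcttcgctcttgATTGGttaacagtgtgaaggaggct
The H2-Aa stretch is chr17:34287847-34287924 on the minus strand and that of H2-Eb1 is chr17:34305756-34305832 on the plus strand. The composite began 81 and 91 bases before those starts.

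A second composite, TGACG and ATTGG with 15 to 25 bases between them on either strand, stands for the X2 and Y boxes. It was chosen after the class I promoters had been seen. It was found in 143 of 32851 windows (0.435%) and in 6 member genes, namely both classical class I genes, H2-Q7, H2-M3, B2m and H2-Aa. The windows of the abundant class I genes and of B2m are shown, all 4 of them chosen as called lower in MNK-3 against NK cells (below), with the composite in capitals:
H2-K1: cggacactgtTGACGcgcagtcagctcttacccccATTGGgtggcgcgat
H2-D1: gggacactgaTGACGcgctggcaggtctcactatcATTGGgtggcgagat
H2-Q7: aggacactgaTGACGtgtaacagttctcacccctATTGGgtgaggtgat
B2m: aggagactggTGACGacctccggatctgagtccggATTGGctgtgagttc
These are chr17:34000349-34000398 on the minus strand for H2-K1, chr17:35262983-35263032 on the plus strand for H2-D1, chr17:35439081-35439129 on the plus strand for H2-Q7, and chr2:122147599-122147648 on the plus strand for B2m. A match is a description of these letters and not a binding site. H2-Q6, H2-T22 and H2-T23 were also called lower in MNK-3 against NK cells and lack this composite in their windows, and H2-M3 holds it and was not called. H2-Ab1, Ciita, Nlrc5 and Cd74 had no entry in the promoter table.

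Class I genes also share sequence with each other. The coding stretch shown here, of 38 bases and so as long as 1 read of these libraries, occurs in the coding sequence of 14 of the members, H2-K1, H2-D1, H2-Q6, H2-Q7, H2-T22 and H2-T23 among them (GENCODE M21, GRCm38, chromosome 17):
class I coding stretch: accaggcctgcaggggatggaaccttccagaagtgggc
The tables held 0 reads counted as aligned to several places, so a read whose pair falls wholly in such a stretch may be missing from all of these genes. Of the 38-base stretches in their transcripts, 16.1% for H2-K1 and 20.3% for H2-D1 were found in a gene elsewhere. For non-classical genes the median was 15.8%, with 44.2% for H2-Q6, 33.3% for H2-Q7 and 45.3% for H2-T22, of which 40.9% was with H2-T10. The median was 0.354% for class II genes and 0.201% for processing and regulation genes, and B2m, H2-Ab1, Nlrc5 and Ctss had 0%. The classes were not uniform. Class II H2-DMb1 and H2-DMb2 had 27.8% and 32.1%, mostly shared with each other. Class I H2-M3, H2-T3 and H2-T24 had 2.36%, 2.75% and 4.87%. Values of the genes with much sharing, most of them class I, are therefore less certain than those of the other members. The genome that the reads were aligned to is that of C57BL/6, not NIH-Swiss. H2 genes are known to differ in sequence between mouse strains. For every class I gene that was lower in MNK-3 below, H2-K1, H2-Q7, H2-T22 and H2-T23 among them, loss of NIH-Swiss reads in mapping and a lower level of RNA cannot be told apart. Such loss was not measured for any member, and the same limit holds for H2-Ab1 and B2m.

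**Figure D1:**
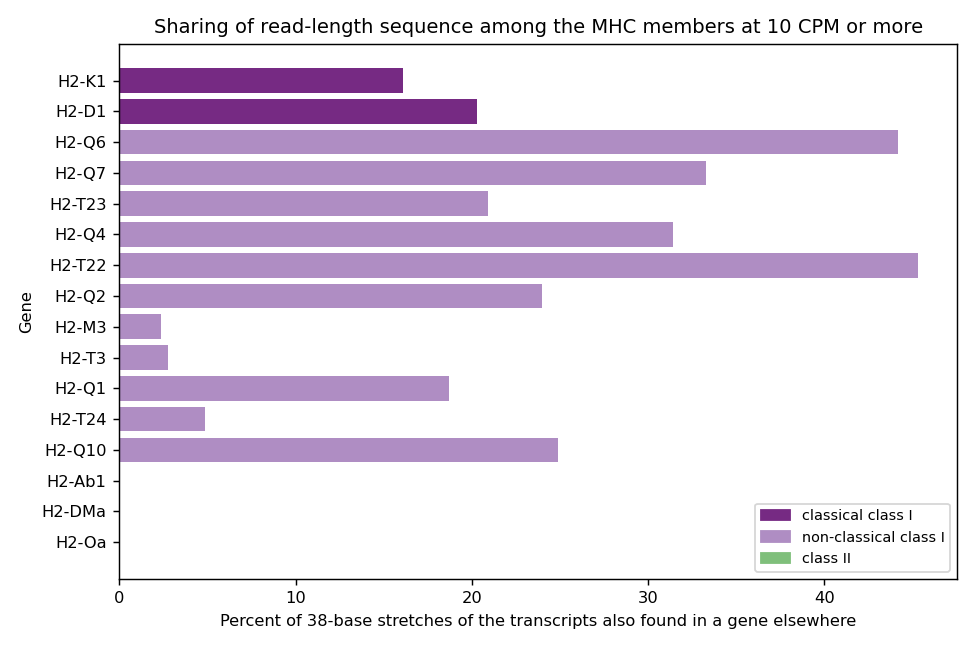
Percent of 38-base stretches in each gene's transcripts that also occur in a gene elsewhere (horizontal axis), for the MHC genes with at least 10 CPM in any library, coloured by class. The bars of H2-T22 (45.3%) and H2-Q6 (44.2%) are the longest, and H2-Ab1 has none.

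Counts are given as CPM, read counts scaled to 1000000 reads over the 30731 shared genes, with MNK-3 replicate 1 before replicate 2. These totals were 25617762 and 15177345 reads for MNK-3, 9298162 for ILC2 and 4637812 for NK cells, and 3 counts were worth 0.117 to 0.647 CPM. MNK-3 replicate 1 stands apart: 75.8% of its reads fell in no gene, against 24.3% in replicate 2, 23.1% in ILC2 and 47.1% in NK cells. The 9097 genes without a count in replicate 2 had a median of 0.742 CPM in replicate 1 and a 95th percentile of 5.11 CPM, so values of a few CPM in replicate 1 are read beside that level. Summed markers were highest in the cells of their label. In MNK-3 replicates 1 and 2, ILC2 and NK cells, in that order, 5 NK markers had 76.4, 69.2, 16.5 and 4694.2 CPM. The 5 ILC2 markers had 144, 95.5, 5473.6 and 132 CPM, and 5 ILC3 markers had 2967.6, 4296.9, 709 and 129 CPM. The ILC2 marker Il17rb did not follow its label, with 25.76, 2.504, 3.979 and 3.881 CPM in the same order.

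Differences were tested with limma voom over 25283 genes, 45 members among them, and a gene was called at an adjusted p under 0.05. Since ILC2 and NK cells have 1 library each, the test takes its spread from the MNK-3 libraries, pooled over genes, and assumes that the lone libraries vary like them. Nothing in the labels says that the MNK-3 libraries came from separate cultures, so that spread may be technical. With scaling to library totals, 8 members were lower and 0 higher in MNK-3 than in NK cells, where 2.04% of all genes were called lower and 0.289% higher. Against ILC2, 4 members were lower and 0 higher in MNK-3, where 2.37% of all genes were called lower and 0.902% higher. In ILC2 against NK cells 5 members were lower and 0 higher, where 0.819% of all genes were called lower and 0.479% higher. At an unadjusted p under 0.05 there were 11, 10 and 7 members in these 3 comparisons. No member was called under TMM (trimmed means of M values) or median-of-ratios scaling in limma voom, where 8 and 5, 6 and 7, and 2 and 1 members had an unadjusted p under 0.05 in the same order of comparisons. The calls below thus hold for scaling to totals, and every called value kept its direction under the other scalings. The skew to lower calls over all genes was not seen with libraries thinned to the smallest total, where 780 genes were called lower and 807 higher in MNK-3 against NK cells, with 11 members lower and 1 higher.

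A second reading used size alone: at least 4-fold on CPM + 0.5, with 10 CPM or more in the group that is higher, and MNK-3 as the mean of its libraries. By size, 6 members were higher in MNK-3 than in NK cells (background 6.04% of genes) and 7 were lower (background 1.65%). Against ILC2, 6 were higher in MNK-3 (background 5.2%) and 3 lower (background 1.42%). In ILC2 against NK cells 1 was higher (background 3.12%) and 3 were lower (background 2.24%). Those below NK cells in MNK-3 were Ctss, H2-K1, H2-Q6, H2-Q7, H2-T22, H2-T23 and Nlrc5, and those below ILC2 were Ctss, H2-Ab1 and H2-T22. In ILC2 against NK cells H2-Ab1 was higher and H2-Q6, Nlrc5 and Tapbpl were lower. The 6 higher in MNK-3 were Cd74, Ciita, H2-Ke6, H2-Q1, H2-Q2 and H2-T3 in both comparisons, which share the MNK-3 libraries. Of these, H2-T3 rests on replicate 1 (35.52 and 2.438 CPM), and H2-Ke6 was counted over different gene sets, so neither is read as higher.

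**Figure D2:**
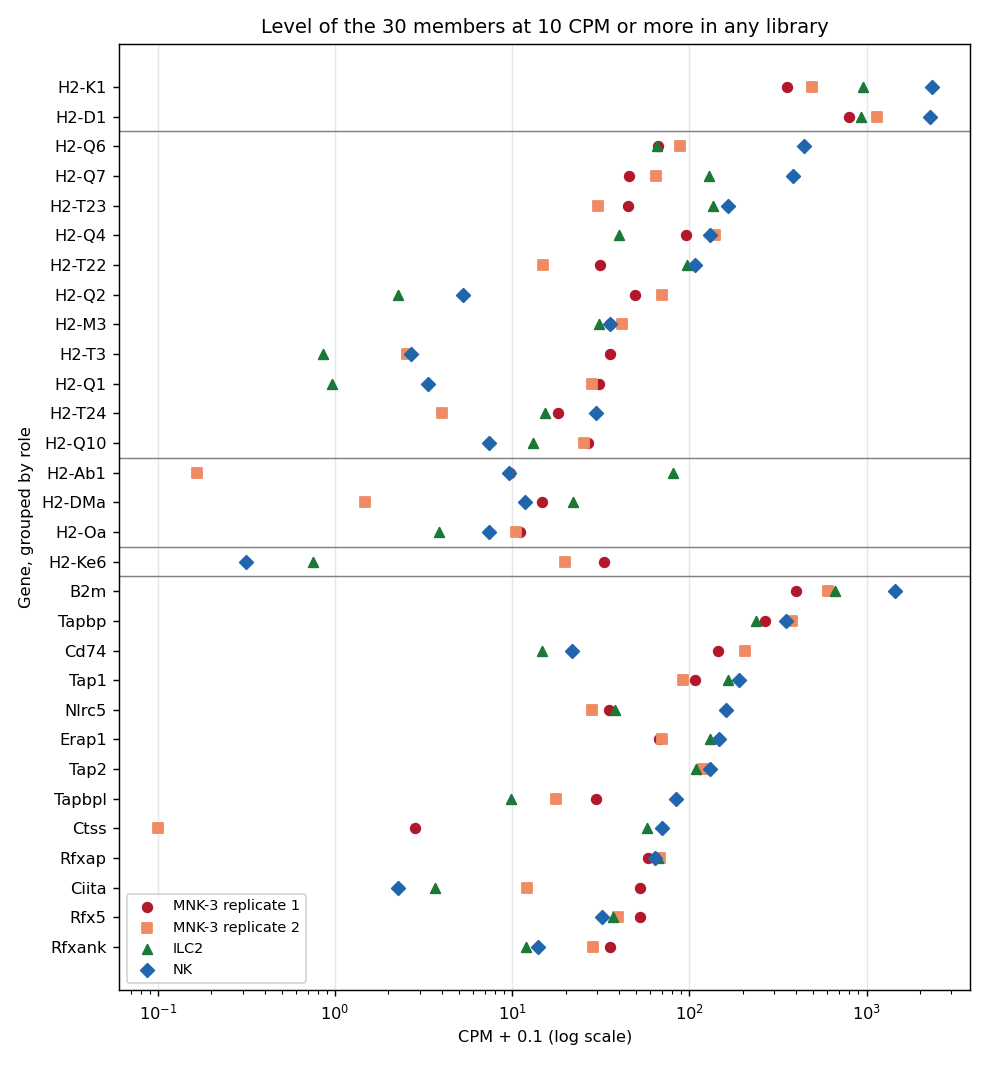
Level of the 30 members that reached 10 CPM in any library, as CPM + 0.1 on a log axis, grouped by role, with 1 point for each library. H2-K1 and B2m are highest in NK cells (2335 and 1449 CPM), and H2-Ab1 stands out in ILC2 (81.09 CPM).

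Classical class I was highest in NK cells, and H2-K1 was lowest in MNK-3. H2-K1 (chr17:33996017-34000347, minus strand), a classical heavy chain that presents peptides to CD8+ T cells, had 357.1 and 493.4 CPM in MNK-3, 950.9 CPM in ILC2 and 2335 CPM in NK cells. Both MNK-3 libraries lay below ILC2, and ILC2 below NK cells. H2-K1 was 5.49-fold lower in the MNK-3 libraries than in NK cells (425.3 ± 96.3 CPM in MNK-3, SD, n = 2), with a log2 fold of -2.50 (SE 0.21 by limma voom, adjusted p = 1.759e-29). It was also lower in MNK-3 than in ILC2, at -1.21 (SE 0.22, adjusted p = 2.567e-06), and in ILC2 than in NK cells, at -1.30 (SE 0.24, adjusted p = 2.732e-05). H2-D1 (chr17:35262730-35267499, plus strand), the other classical heavy chain, had 797.5 and 1147 CPM in MNK-3, 933.7 CPM in ILC2 and 2271 CPM in NK cells. For H2-D1 the MNK-3 libraries lay on both sides of ILC2. It was lower in the MNK-3 libraries than in NK cells, at -1.27 (SE 0.20, adjusted p = 4.006e-08), and in ILC2 than in NK cells, at -1.28 (SE 0.24, adjusted p = 3.900e-05), and its difference between MNK-3 and ILC2 was 0.01 (SE 0.21, adjusted p = 0.999).

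B2m, on chromosome 2, encodes the light chain of all class I molecules. It had 399 and 608.3 CPM in MNK-3, 663.6 CPM in ILC2 and 1449 CPM in NK cells, in the same order of cell types as H2-K1. B2m was lower in the MNK-3 libraries than in NK cells, at -1.59 (SE 0.22 by limma voom, adjusted p = 2.418e-10), and in ILC2 than in NK cells, at -1.13 (SE 0.27, adjusted p = 0.0032). Between MNK-3 and ILC2 its log2 fold was -0.46 (SE 0.23, adjusted p = 0.553). B2m shares no read-length stretch with another gene, so its value does not carry the uncertainty that sharing gives the heavy chains. Loss of NIH-Swiss reads in mapping was not measured for B2m.

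Ratios within a library need no scaling. H2-K1 counts were 0.448 and 0.43 times those of H2-D1 in the MNK-3 libraries, 1.02 times in ILC2 and 1.03 times in NK cells. The MNK-3 libraries thus lay close together and apart from the C57BL/6 cells, which lay close to 1. Strain, with any loss of reads in mapping, and cell type cannot be told apart in this ratio. The ratio of B2m to H2-K1 plus H2-D1 differed less, with 0.346 and 0.371 in MNK-3, 0.352 in ILC2 and 0.315 in NK cells. Per kilobase of exon, B2m led all members in every library (464 and 707.3 CPM per kb in MNK-3, 771.6 in ILC2 and 1685 in NK cells). H2-D1 followed it, with 309.2 and 444.8 CPM per kb in MNK-3, 362.1 in ILC2 and 880.7 in NK cells.

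**Figure D3:**
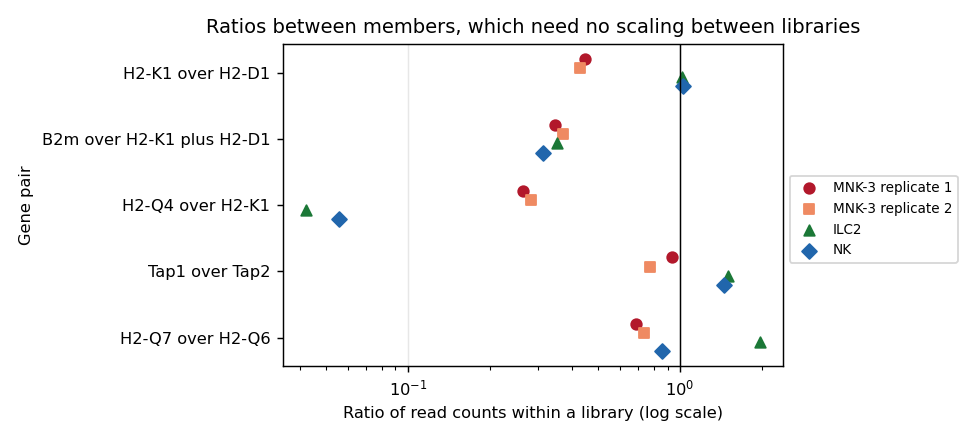
Ratio of read counts between 2 members or sums of members within each library, on a log axis, with 1 point for each library. H2-K1 over H2-D1 is 0.448 and 0.43 in MNK-3, against 1.02 in ILC2 and 1.03 in NK cells, whereas B2m over both lies between 0.315 and 0.371.

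Summed over the class, classical class I reached 1155 and 1641 CPM in MNK-3, 1885 CPM in ILC2 and 4606 CPM in NK cells. Non-classical class I reached 502.2 and 510.2 CPM in MNK-3, 531 CPM in ILC2 and 1314 CPM in NK cells. The log2 ratio of the classical sums was -1.72 for MNK-3 over NK cells, -0.43 for MNK-3 over ILC2 and -1.29 for ILC2 over NK cells. For non-classical sums it was -1.38, -0.07 and -1.31 in the same order. These are descriptions with no test, and fewer cells of a type and less RNA per cell cannot be told apart in bulk RNA. All 47 members together took 0.312% and 0.385% of reads in MNK-3, 0.408% in ILC2 and 0.867% in NK cells.

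**Figure D4:**
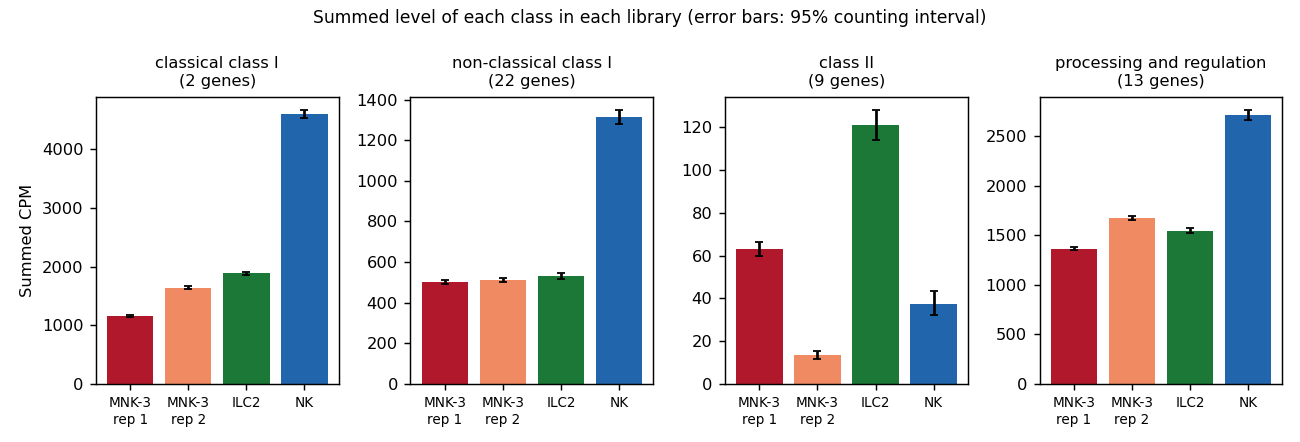
Summed CPM of each class in each library (vertical axes start at 0 and differ in scale), with exact 95% Poisson intervals that cover counting error only. NK cells lead 3 of the classes, with 4606 CPM for classical and 1314 CPM for non-classical class I, and ILC2 leads class II with 121 CPM.

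Among the non-classical genes, the Qa-2 genes H2-Q6 and H2-Q7 were highest in NK cells. H2-Q6 had 66.13 and 88.09 CPM in MNK-3, 65.28 CPM in ILC2 and 444.6 CPM in NK cells. H2-Q7 had 45.44 and 64.77 CPM in MNK-3, 128.8 CPM in ILC2 and 382.1 CPM in NK cells. For both genes every other library lay below NK cells. H2-Q6 was lower in the MNK-3 libraries than in NK cells by a log2 fold of -2.58 (SE 0.34 by limma voom, adjusted p = 4.027e-12), and in ILC2 than in NK cells by -2.77 (SE 0.50, adjusted p = 1.049e-05). H2-Q7 was lower in the MNK-3 libraries than in NK cells, at -2.87 (SE 0.36, adjusted p = 1.005e-12), in MNK-3 than in ILC2, at -1.30 (SE 0.40, adjusted p = 0.0362), and in ILC2 than in NK cells, at -1.57 (SE 0.42, adjusted p = 0.0204). Reads of H2-Q6 and H2-Q7 are hard to keep apart, with 44.2% and 33.3% of their read-length stretches shared. Their ratio, H2-Q7 over H2-Q6, was 0.687 and 0.735 in MNK-3, 1.97 in ILC2 and 0.859 in NK cells.

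A different grouping held for H2-T23 and H2-T22 of the T region, where ILC2 lay near NK cells. H2-T23 encodes Qa-1, which presents class I leader peptides to CD94-NKG2 receptors of NK cells, and had 45.12 and 30.31 CPM in MNK-3, 135.8 CPM in ILC2 and 164.1 CPM in NK cells. H2-T22, a ligand of some gamma-delta T cells, had 31.11 and 14.76 CPM in MNK-3, 96.9 CPM in ILC2 and 108 CPM in NK cells. Both MNK-3 libraries were below the other cells for both genes. H2-T23 was lower in the MNK-3 libraries than in NK cells, at -2.09 (SE 0.47 by limma voom, adjusted p = 0.000734), and than in ILC2, at -1.81 (SE 0.42, adjusted p = 0.000863). H2-T22 was lower in the MNK-3 libraries than in NK cells, at -2.17 (SE 0.59, adjusted p = 0.0121), and than in ILC2, at -2.02 (SE 0.51, adjusted p = 0.00354). In ILC2 against NK cells the log2 folds were -0.27 for H2-T23 and -0.16 for H2-T22, and neither was called. H2-T24 had 18.11 and 3.887 CPM in MNK-3, 15.16 CPM in ILC2 and 29.54 CPM in NK cells, with MNK-3 on both sides of ILC2.

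Other Q region genes ran the other way by size, although none was called. H2-Q2 had 49.3 and 69.51 CPM in MNK-3, 2.151 CPM in ILC2 and 5.175 CPM in NK cells. H2-Q1 had 30.64 and 28.27 CPM in MNK-3, 0.8604 CPM in ILC2 and 3.234 CPM in NK cells. Both MNK-3 libraries exceeded the other cells for both genes. H2-Q2 was 10.6-fold higher in MNK-3 than in NK cells and 22.6-fold higher than in ILC2 by size, with log2 folds of 3.42 (SE 3.75 by limma voom, adjusted p = 1) and 4.68 (SE 4.05, adjusted p = 0.999). H2-Q1 was 8.02-fold and 22-fold higher in MNK-3 than in NK cells and ILC2 by size. H2-Q1 and H2-Q2 share 12.4% and 17.3% of their stretches with each other, and 6.28% and 3.64% with H2-D1. In all, 18.7% and 24% of their stretches were found in a gene elsewhere. Strain, with any effect on mapping, and cell type cannot be told apart in their values. H2-Q10, known in the mouse for a soluble class I chain made in liver, had 26.62 and 25.43 CPM in MNK-3, 12.91 CPM in ILC2 and 7.331 CPM in NK cells.

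H2-Q4 had 95.05 and 140 CPM in MNK-3, 40.01 CPM in ILC2 and 129.8 CPM in NK cells. Here ILC2 was lowest and NK cells lay between the MNK-3 libraries. Its log2 fold was 1.48 for MNK-3 over ILC2 (SE 0.58 by limma voom, adjusted p = 0.223, and called at 1.43 with adjusted p = 0.00977 when thinned) and -1.70 for ILC2 over NK cells (SE 0.70, adjusted p = 0.542, and called at -1.68 with adjusted p = 0.00516 when thinned). H2-Q4 counts were 0.266 and 0.284 times those of H2-K1 in MNK-3, 0.0421 times in ILC2 and 0.0556 times in NK cells. H2-M3, which presents N-formylated peptides, was level, with 35.44 and 41.38 CPM in MNK-3, 30.76 CPM in ILC2 and 35.58 CPM in NK cells. Its log2 fold was 0.08 (SE 1.08, adjusted p = 1) for MNK-3 over NK cells. H2-T3, the thymus leukaemia antigen gene, had 35.52 and 2.438 CPM in MNK-3, 0.7528 CPM in ILC2 and 2.587 CPM in NK cells, so its high mean rests on replicate 1, the library that stands apart, and replicate 2 lay beside NK cells.

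The other 11 non-classical genes, all of the M region, stayed under 10 CPM in every library. They ran up to 8.158 CPM in MNK-3 replicate 1 (H2-M5), and stayed at or under 0.8625 CPM elsewhere. All 11 were highest in MNK-3 replicate 1. The members without a count in replicate 2 include 5 of them (H2-M1, H2-M9, H2-M10.1, H2-M10.5 and H2-M10.6), and the members at 0 there had a median of 1.76 CPM in replicate 1, against 0.742 CPM for all such genes. Over the 11 non-classical genes at 10 CPM in either group, the median log2 ratio was -0.14 for MNK-3 over NK cells, beside 0.58 for all 11277 genes at that level. For MNK-3 over ILC2 it was 0.32, beside 0.50 over 11253 genes.

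**Figure D5:**
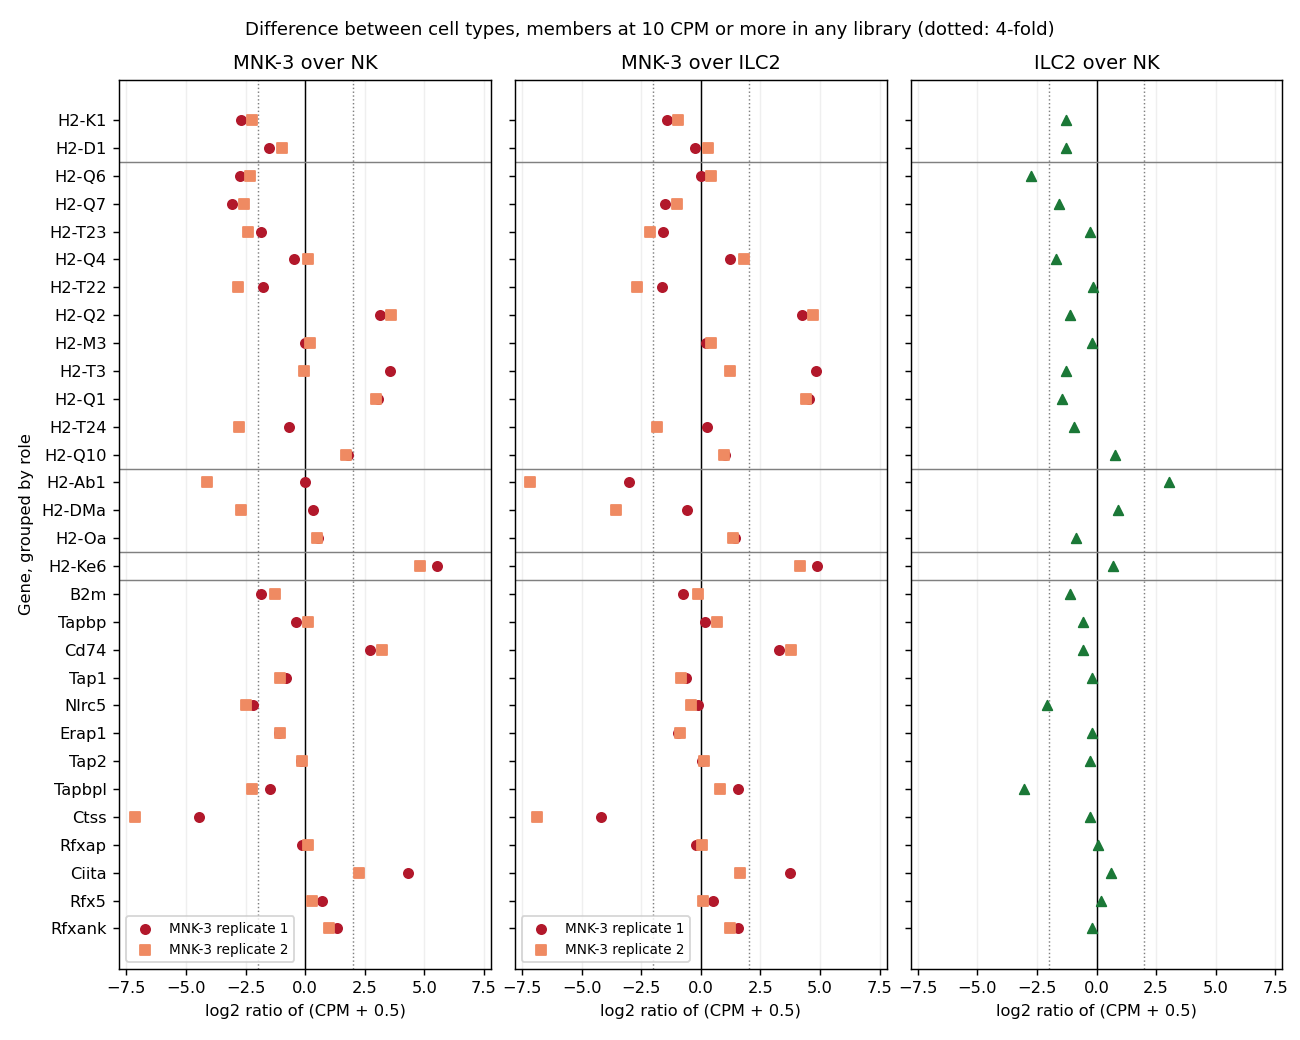
The log2 ratio of CPM + 0.5 for each member at 10 CPM or more in any library, grouped by role, with a point for each MNK-3 library against NK cells (left) and against ILC2 (middle), and ILC2 against NK cells (right). Dotted lines mark 4-fold. H2-K1, H2-Q7, H2-T23 and H2-T22 lie left of 0 for both MNK-3 libraries in both MNK-3 panels, and H2-Q1, H2-Q2 and Cd74 lie right of it.

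Class II was led by a single chain in ILC2. H2-Ab1, the beta chain of the A molecule, had 9.564 and 0.06589 CPM in MNK-3, 81.09 CPM in ILC2 and 9.487 CPM in NK cells, from 245, 1, 754 and 44 counts. ILC2 was 8.17-fold above NK cells and 15.4-fold above the MNK-3 mean (4.815 ± 6.72 CPM, SD, n = 2). Neither difference was called, with a log2 fold of -5.73 for MNK-3 over ILC2 (SE 2.90 by limma voom, adjusted p = 0.624) and 3.08 for ILC2 over NK cells (SE 2.76, adjusted p = 0.999). The partner chain H2-Aa had 2.537 and 0.1977 CPM in MNK-3, 2.259 CPM in ILC2 and 3.019 CPM in NK cells, and ILC2 did not lead. H2-Ab1 counts were 35.9 times those of H2-Aa in ILC2 and 3.14 times in NK cells, and 3.77 and 0.333 times in MNK-3. H2-Ab1 overlapped no other gene and shared no read-length stretch in the C57BL/6 reference. Loss of NIH-Swiss reads in mapping was not measured for it. Such loss and a lower level of RNA in MNK-3 cannot be told apart.

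The remaining class II chains were low. H2-Eb1 had 4.255 and 0.3294 CPM in MNK-3, 1.506 CPM in ILC2 and 1.725 CPM in NK cells, and H2-Eb2 had 9.564 and 0 CPM in MNK-3, 0.3226 CPM in ILC2 and 0.4312 CPM in NK cells. H2-DMa, a chain of the peptide exchanger DM, had 14.6 and 1.384 CPM in MNK-3, 22.05 CPM in ILC2 and 11.64 CPM in NK cells. Its partner H2-DMb1 had 1.249 and 0.2636 CPM in MNK-3, 8.604 CPM in ILC2 and 0.6469 CPM in NK cells, so both DM chains were highest in ILC2. H2-DMb2 had at most 2.928 CPM and shares 26.2% of its stretches with H2-DMb1, which shares 27.8% of its own with H2-DMb2. H2-Oa, a chain of the DM inhibitor DO, was steady between the MNK-3 libraries, with 10.97 and 10.41 CPM in MNK-3, 3.764 CPM in ILC2 and 7.331 CPM in NK cells. Its partner H2-Ob had 7.339 and 0.7907 CPM in MNK-3, 1.291 CPM in ILC2 and 2.587 CPM in NK cells. Of the class II genes that hold the first composite printed above, only H2-Oa reached 10 CPM, in MNK-3. The others, H2-Ob, H2-Aa, H2-Eb1 and H2-Eb2, stayed under 10 CPM in every library.

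Summed over 9 genes, class II reached 63 and 13.51 CPM in MNK-3, 121 CPM in ILC2 and 37.52 CPM in NK cells. That was 3.8% and 0.628% of class I reads in MNK-3, 5.01% in ILC2 and 0.634% in NK cells. NK cells lay between the MNK-3 libraries, so no order of MNK-3 and NK cells is given. The A and E chains alone summed to 25.92 and 0.593 CPM in MNK-3, 85.18 CPM in ILC2 and 14.66 CPM in NK cells. None of the 9 class II genes was called by limma voom in any comparison, and the only unadjusted p under 0.05 was that of H2-Ab1 in MNK-3 against ILC2.

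B cells, dendritic cells and macrophages carry much class II, so their markers are given beside these values. The 10 B cell markers summed to 116 and 69.8 CPM in MNK-3, 173 CPM in ILC2 and 146 CPM in NK cells. Most of that was Ighm (128.5 CPM in ILC2 and 127 CPM in NK cells). Cd79b had 37.64 CPM in ILC2, while the defining marker Cd79a had 0.4302 CPM there and Ms4a1 had 0. The 8 dendritic cell markers summed to 182 and 120 CPM in MNK-3, 11.9 CPM in ILC2 and 549 CPM in NK cells, of which Itgax, which NK cells also express, made 527.8 CPM. In ILC2, 3 of these 8 markers were at 0 (Clec9a, Siglech and Cd209a). The 8 monocyte or macrophage markers summed to 38.4 and 3.89 CPM in MNK-3, 24 CPM in ILC2 and 25 CPM in NK cells, with Csf1r at 0.7528 CPM in ILC2. The part of such cells in the H2-Ab1 value was not tested.

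Neither Cd74 nor Ctss followed H2-Ab1. Cd74, the invariant chain, had 145.1 and 205.8 CPM in MNK-3, 14.63 CPM in ILC2 and 21.78 CPM in NK cells. Both MNK-3 libraries were far above the other cells, by 7.9-fold against NK cells and 11.6-fold against ILC2 on their mean. The log2 fold was 2.94 for MNK-3 over NK cells (SE 1.57 by limma voom, adjusted p = 1) and 3.52 for MNK-3 over ILC2 (SE 1.24, adjusted p = 0.117), and neither was called. With all libraries thinned to the smallest total, both were called by limma voom, at 2.98 (adjusted p = 2.216e-05) and 3.61 (adjusted p = 0.00101), while no other setting called them. Ctss, cathepsin S, which trims the invariant chain, had 2.732 and 0 CPM in MNK-3, 57.65 CPM in ILC2 and 70.29 CPM in NK cells. Replicate 2 had no Ctss count, which allows up to 0.198 CPM (3 counts, counting error only). Cd74 and Ctss thus ran in opposite directions, and in MNK-3 replicate 2 Cd74 counts were 3123 times those of H2-Ab1, against 0.18 times in ILC2 and 2.3 times in NK cells. In replicate 1 that ratio was 15.2.

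Among the genes of peptide supply to class I, Tap2 and Tapbp were close to level and Tapbpl spread most. Tap2, a subunit of the peptide transporter, had 114.4 and 118.5 CPM in MNK-3, 109.5 CPM in ILC2 and 130.9 CPM in NK cells. The other subunit, Tap1, had 107.2 and 92.11 CPM in MNK-3, 164.7 CPM in ILC2 and 190.2 CPM in NK cells. Tap1 counts were 0.937 and 0.777 times those of Tap2 in MNK-3, 1.5 times in ILC2 and 1.45 times in NK cells. Tapbp, tapasin, which holds class I at the transporter, had 265.9 and 381.6 CPM in MNK-3, 238.5 CPM in ILC2 and 349.3 CPM in NK cells, with overlapping levels. Erap1, which trims peptides in the endoplasmic reticulum, had 67.65 and 70.17 CPM in MNK-3, 130.2 CPM in ILC2 and 147.7 CPM in NK cells. Tapbpl, the tapasin-related peptide editor TAPBPR, had 29.74 and 17.59 CPM in MNK-3, 9.787 CPM in ILC2 and 84.09 CPM in NK cells. None of these 5 genes was called, and the nearest was Tapbpl in MNK-3 against NK cells, at -1.77 (SE 0.64 by limma voom, adjusted p = 0.184).

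The regulators split. Nlrc5, the class I transactivator, had 34.94 and 28.27 CPM in MNK-3, 37.75 CPM in ILC2 and 161.3 CPM in NK cells. All other libraries lay below NK cells, as for H2-Q6 and the classical genes. Nlrc5 was 5.04-fold lower in the MNK-3 libraries than in NK cells, with a log2 fold of -2.32 (SE 0.49 by limma voom, adjusted p = 0.000153), and its -2.09 in ILC2 against NK cells (SE 0.69, adjusted p = 0.146) was not called. When thinned, Nlrc5 was called lower in ILC2 than in NK cells by limma voom, at -2.15. Ciita, the class II transactivator, had 52.81 and 12.06 CPM in MNK-3, 3.549 CPM in ILC2 and 2.156 CPM in NK cells. Both MNK-3 libraries exceeded the other cells, but they differed more than 4-fold from each other, and Ciita was not called (3.77 for MNK-3 over NK cells, SE 5.02, adjusted p = 1). Nlrc5 counts were 0.661 and 2.34 times those of Ciita in MNK-3, 10.6 times in ILC2 and 74.8 times in NK cells.

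Of the 3 RFX subunits, which bind the X box for both transactivators, Rfxap and Rfx5 were close to level. Rfxap had 58.48 and 68.52 CPM in MNK-3, 66.68 CPM in ILC2 and 63.82 CPM in NK cells, and Rfx5 had 52.35 and 39.33 CPM in MNK-3, 37.1 CPM in ILC2 and 32.13 CPM in NK cells. Rfxank had 35.33 and 28.4 CPM in MNK-3, 11.83 CPM in ILC2 and 13.8 CPM in NK cells, with both MNK-3 libraries above the others. Nr2c2ap overlaps 33.8% of the Rfxank exon bases on the other strand, and the strand setting of the counting is not given in the sources used here. Genes on the other strand also overlap 29.4% of H2-T22, 26.8% of Rfx5, 22.8% of H2-Oa and 19.1% of H2-Q4. They overlap 18.5% of Tap2, 11.5% of Erap1 and 10.4% of H2-DMa as well. For Tapbp the overlap was 29% over either strand, with 4.11% on the same strand. Reads of these members are uncertain in the same way. Apart from H2-Ke6 (below), no other member exceeded the 3.87% of Tap1. None of the RFX genes was called.

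H2-Ke6, a hydroxysteroid dehydrogenase gene within the complex, had 32.98 and 19.77 CPM in MNK-3, 0.6453 CPM in ILC2 and 0.2156 CPM in NK cells. Another gene, Gm20427, overlaps 86.4% of its exon bases on the same strand. Gm20427 was listed in the ILC2 and NK tables and not in the MNK-3 tables, so the H2-Ke6 values come from different gene sets, and no change between cells is read from them.

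Other genes of the pathway were read from lists in the same fit, beside the shares of all genes called given above. Of the 21 calls made over these lists with totals, 0 were made with TMM or median-of-ratios scaling, and all 21 kept their direction there. Of the immunoproteasome list, 0 of 6 were called by limma voom in any comparison (2, 0 and 0 had an unadjusted p under 0.05). Psmb8, a catalytic subunit, had 214.8 and 275.2 CPM in MNK-3, 299.4 CPM in ILC2 and 228.1 CPM in NK cells. The 7 chaperones listed are folding factors of the endoplasmic reticulum and not particular to class I. Of these, 5 were lower in MNK-3 than in ILC2 (Calr, Canx, Hspa5, Pdia3 and Pdia6), beside 2.37% of all genes. The same 5 were higher in ILC2 than in NK cells, beside 0.479% of all genes. In MNK-3 against NK cells 0 were called (3 at an unadjusted p under 0.05). These comparisons share libraries. Calreticulin, Calr, had 467 and 675 CPM in MNK-3, 1974 CPM in ILC2 and 836.4 CPM in NK cells. It was lower in MNK-3 than in ILC2 by a log2 fold of -1.84 (SE 0.19 by limma voom, adjusted p = 9.151e-19) and higher in ILC2 than in NK cells, at 1.24 (SE 0.26, adjusted p = 0.000542). The chaperones were thus highest in ILC2, whereas H2-K1 and H2-D1 were highest in NK cells. The median log2 ratio of the list was -1.76 for MNK-3 over ILC2, beside 0.50 for all genes at 10 CPM in either group.

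Among 14 transcription regulators, Irf1, Irf2 and Irf8 were lower in the MNK-3 libraries than in NK cells. In ILC2 against NK cells Crebbp, Irf1 and Irf8 were lower. Irf1, which is known to act on class I promoters, had 82.87 and 67.6 CPM in MNK-3, 73.89 CPM in ILC2 and 255.1 CPM in NK cells, with only NK cells high. Its log2 fold was -1.74 for MNK-3 over NK cells (SE 0.38 by limma voom, adjusted p = 0.000441) and -1.79 for ILC2 over NK cells (SE 0.51, adjusted p = 0.0405). Irf8 had 51.96 and 60.81 CPM in MNK-3, 15.49 CPM in ILC2 and 538.2 CPM in NK cells. An interferon response core, GAAANNGAA on either strand, was found in 8.56% of all promoter windows and in 5 of the 41 member windows. Those 5 were the windows of B2m, H2-T22, H2-T23, Erap1 and Ctss. The windows of H2-K1 and H2-D1 held none.

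Of 9 measured genes of endosomal processing, Ctsd was lower in the MNK-3 libraries than in NK cells, Ctsd and Lgmn were lower and Sppl2a higher in MNK-3 than in ILC2, and 0 were called in ILC2 against NK cells (1 at an unadjusted p under 0.05). Ctsd, cathepsin D, had 53.79 and 61.6 CPM in MNK-3, 291.7 CPM in ILC2 and 484.7 CPM in NK cells. Lgmn had 53.4 and 64.77 CPM in MNK-3, 181.6 CPM in ILC2 and 13.58 CPM in NK cells. Like H2-Ab1, Lgmn was highest in ILC2. Sppl2a, a protease that clears the last fragment of the invariant chain, had 242.1 and 295.4 CPM in MNK-3, 97.12 CPM in ILC2 and 79.99 CPM in NK cells, and like Cd74 it was higher in both MNK-3 libraries than in the other cells. None of 8 class I-like genes outside the complex was called (0, 1 and 0 at an unadjusted p under 0.05), although Ulbp1, a ligand of the NKG2D receptor, had 145.3 and 165.3 CPM in MNK-3, 8.496 CPM in ILC2 and 20.05 CPM in NK cells. None of 7 costimulators was called, also without adjustment, and Icosl, the most abundant of them in MNK-3, had 39.19 and 18.84 CPM in MNK-3, 6.345 CPM in ILC2 and 17.25 CPM in NK cells.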

How the data were processed

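STAR 2.7.8a and HTSeq made the gene counts on mm10/GRCm38, per the submitters' processing notes. The deposited values are whole-number read counts per gene, not normalized (a unit recorded as other, because the unit check cannot parse these tables as counts; limma voom was used for that reason). Strand setting and gene set were not given in the sources used here. Whether technical replicates were pooled is not known. MNK-3 tables listed 31053 genes and the others 53465; genes in all 4 were used. Reads naming no gene (25.9% to 76.5%) were left out.

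limma voom (limma 3.58.1, R 4.3.3) was fitted to all 4 libraries in 3 groups, scaled to totals, after a filter (count 10, total 15), two-sided, with Benjamini-Hochberg adjustment. It has 1 residual degree of freedom and an infinite estimated prior. Members were named in full at 10 CPM or more in any library. Members and lists were chosen with earlier results of these data known. Class sums and ratios were descriptions. Sequences came from RefSeq and GENCODE M21. Alternatives covered scaling, filter, thinning, pseudocount and leaving out a library. Some genes of these lists are not reported here.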

Additional observations from a re-analysis of the deposited data

Results flagged for a closer look

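Some H2- genes listed only for ILC2 and NK cells, and so in no comparison above, had more than 3 counts. In ILC2 and NK cells, H2-T-ps had 21.6 and 11.4 CPM, H2-Q5 had 6.45 and 46.8 CPM, H2-T10 had 8.17 and 20.7 CPM, H2-K2 had 2.15 and 17.2 CPM and H2-Bl had 0.86 and 3.02 CPM. H2-Ea-ps had 0.863 CPM in NK cells. These are signals in genes outside the measured set, with no value for MNK-3, and several share stretches with members, such as H2-T10 with H2-T22.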

How the results depend on the processing

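Calls depended on the scaling, sizes less so. Of 97 values of called members under the alternatives of the fit, 0 changed direction and 52 missed the threshold. In the order MNK-3 over NK cells, MNK-3 over ILC2 and ILC2 over NK cells, members called were 8, 4 and 5 with totals, 0, 0 and 0 with TMM and with median-of-ratios scaling, 3, 3 and 3 with scaling from abundant genes, 5, 2 and 4 without the low-count filter, and 12, 7 and 6 when thinned to 4637812 reads. Genes called were 590, 828 and 328 with totals, 132, 83 and 0 with TMM (873, 888 and 577 at an unadjusted p under 0.05), 99, 50 and 0 with median-of-ratios scaling (754, 723 and 469), 87, 244 and 40 from abundant genes, 389, 574 and 183 without the filter, and 1587, 1302 and 1066 when thinned. The cause was not tested. The median log2 ratio of all genes tested was 0.56, 1.21 and -0.77 with totals, 0.6, 0.89 and -0.43 with TMM, and 0.31, 0.6 and -0.42 with median-of-ratios scaling. When thinned, Cd74 was called higher in MNK-3 than in NK cells, and Erap1, Tap1 and Tapbpl were called lower. Against ILC2, Cd74 and H2-Q4 were then called higher in MNK-3 and Erap1 lower. In ILC2 against NK cells H2-Q4 and Nlrc5 were then called lower, and B2m was not called. Under the abundant-gene scaling H2-D1 was called higher and B2m and H2-K1 lower in MNK-3 than in ILC2.

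Log2 ratios of class sums moved as follows. Classical class I, MNK-3 over ILC2, was -0.95 with median-of-ratios scaling, and ILC2 over NK cells was -0.94 with that scaling and with TMM. Non-classical class I, MNK-3 over NK cells, was -1.41 with TMM, -1.64 with median-of-ratios scaling, and -1.33 with abundant genes or totals over all listed genes. MNK-3 over ILC2 was -0.44, -0.68, -0.05 and -0.04 under these 4, and ILC2 over NK cells was -0.96 with TMM and median-of-ratios scaling. Class II, ILC2 over NK cells, was 2.02 with both, MNK-3 over ILC2 was -2.27 with TMM and -2.68 with median-of-ratios scaling, and MNK-3 over NK cells was 0.03 with totals, -0.25 with TMM and -0.65 with median-of-ratios scaling. Leaving out an MNK-3 library, class II was -1.44 to 0.74 for MNK-3 over NK cells, so its sign rests on the library kept, and -3.12 to -0.94 for MNK-3 over ILC2; classical class I was -2.0 to -1.49 and -0.71 to -0.20. All 24 values of called members kept their direction then. No paired analysis was possible because ILC2 and NK cells have 1 library each. Depth limits low members: in NK cells 3 counts are 0.647 CPM.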
